A study of Mus musculus with 33 samples.

Results

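The genes described here build and crosslink the elastic fibre. They were taken as a list of 10 gene symbols, Eln, Fbn1, Mfap2, Mfap5, Fbln1, Fbln2, Fbln5, Lox, Loxl1 and Loxl2, and looked up by symbol in the probe annotation of mouse Illumina bead arrays. Of the 10 listed genes, 9 had a probe and 8 were detected on enough arrays to be tested, among 10614 genes tested in all. No probe was annotated to Fbn1 by symbol, Entrez identifier or RefSeq accession on either array platform, so it was not analysed here. The single Fbln5 probe was detected on 0 of 30 arrays of the larger platform and on 0 of 3 of the smaller, and its level there lay between 4.22 and 4.76 (log2 intensity), at the background of the assay. The 8 tested genes had 14 probes that passed the filter on detection.

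An elastic fibre has a core of crosslinked elastin (Eln) laid on a scaffold of fibrillin microfibrils (Fbn1). The small microfibril-associated glycoproteins encoded by Mfap2 and Mfap5 bind fibrillin, and the fibulins (Fbln1, Fbln2, Fbln5) bridge elastin, microfibrils, basement membrane and the cell surface. Lysyl oxidase (Lox) and its relatives Loxl1 and Loxl2 are secreted copper enzymes that oxidise lysine residues so that elastin and collagen chains crosslink. Fibroblasts are a main source of these proteins, microfibrils store latent TGF-beta, and TGF-beta signalling is known to raise expression of several of them. RepSox is a small-molecule inhibitor of the TGF-beta type I receptor kinase (Alk5, Tgfbr1) that has been used in place of Sox2 in reprogramming.

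The series compared RNA of 11 groups of mouse cells with 3 arrays each. Mouse embryonic fibroblasts (MEF) were measured untreated, with no time given, and after 1 week with RepSox. OKMS6, a single line of partially reprogrammed cells made from MEFs by viral transduction and labelled as carrying viral Sox2, was measured at 10 h, 24 h and 48 h with and without RepSox. The embryonic stem cell lines R1 and V6.5 and an induced pluripotent stem (iPS) cell line, derived with RepSox standing in for viral Sox2, completed the set. The labels allow some of the cultures to have grown on irradiated MEF feeder cells without saying which, give no RepSox dose, and do not say that replicates came from separate cultures, so p-values measure the spread between these arrays.

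The 3 iPS arrays were of a smaller platform and were normalised apart, so no test was made against them. Among the other 30 arrays, V6.5 replicates 1 and 3 were dim, with a mean signal of 66.6 and 79.5 against 329 for V6.5 replicate 2, and detected 31.4% and 28.7% of probes against 47.3%. The other 31 arrays detected 43.8% to 52.8% of probes. All 12 fibroblast markers were detected on every MEF array, and all 10 stem cell markers on every R1 array. In untreated OKMS6 at 48 h, 6 of 10 stem cell markers and 5 of 12 fibroblast markers were detected on all arrays, with the stem cell markers Esrrb and Dppa3 detected on none. For the array numbered 3 in each OKMS6 group at 48 h, the names were exchanged between the authors' scanner table and their processed table, so the 48 h results are also given without these arrays and with the names exchanged.

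Promoter sequence from RefSeq (GRCm38.p6, 250 bases before to 50 after a start site) was at hand for 3 of the 8 tested genes, Mfap2, Fbln1 and Fbln2, and is printed because these 3 genes fell together in fibroblasts with RepSox, as described below. The first listed start of each gene is shown, all on the + strand, in lower case with the letters CAGAC, the core of the Smad binding element, or their reverse complement GTCTG in capitals.
Mfap2, chr4:141010174-141010473: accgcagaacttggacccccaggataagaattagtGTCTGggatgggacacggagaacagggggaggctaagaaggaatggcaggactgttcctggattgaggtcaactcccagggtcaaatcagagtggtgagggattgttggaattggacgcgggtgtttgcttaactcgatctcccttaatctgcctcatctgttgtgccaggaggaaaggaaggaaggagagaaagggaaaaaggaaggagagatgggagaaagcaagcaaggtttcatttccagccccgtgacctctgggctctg
Fbln1, chr15:85205699-85205998: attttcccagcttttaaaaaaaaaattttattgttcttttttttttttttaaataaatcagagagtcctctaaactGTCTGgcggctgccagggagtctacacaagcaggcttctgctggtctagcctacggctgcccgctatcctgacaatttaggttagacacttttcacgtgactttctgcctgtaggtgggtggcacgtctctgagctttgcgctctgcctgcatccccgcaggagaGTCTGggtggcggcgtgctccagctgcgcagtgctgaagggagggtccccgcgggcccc
Fbln2, chr6:91212514-91212813: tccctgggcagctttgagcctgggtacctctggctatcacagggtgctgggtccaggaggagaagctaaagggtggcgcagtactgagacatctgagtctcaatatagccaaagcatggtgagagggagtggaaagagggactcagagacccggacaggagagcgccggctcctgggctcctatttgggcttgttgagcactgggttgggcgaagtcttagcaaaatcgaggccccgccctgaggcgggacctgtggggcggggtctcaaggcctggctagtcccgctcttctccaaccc
The Mfap2 window held 1 match to CAGAC on either strand, the Fbln1 window 2 and the Fbln2 window 0, while 49.6% of all 32851 windows of the same length held at least 1. Of the other motifs searched on both strands, CCAAT (in 37.4% of all windows) and GGAATG (14.7%) each had 1 match in the Mfap2 window, and no match overlapped another. TGANTCA (7.81% of all windows) and TATAAA (13.6%) had no match in the 3 windows, and the Fbln1 and Fbln2 windows held neither CCAAT nor GGAATG. The GC content was 52.0%, 51.7% and 60.3% for Mfap2, Fbln1 and Fbln2, against a median of 52.7% over all windows. These values hold for the first listed starts. The window of a second Mfap2 start held 0 matches to any of these motifs, with a GC content of 68%. That of a second Fbln1 start held 2 matches to CAGAC and 0 to the others, with 64%.

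All 8 tested genes were expressed in untreated fibroblasts, each on 3 of 3 arrays, and for 7 of the 8 the untreated fibroblasts had the highest mean of the 10 groups. Loxl2 was the exception, with its highest mean in fibroblasts treated with RepSox. Levels are normalised log2 intensities, with a background near 4.3, and are compared between groups for one probe at a time.

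**Figure D1:**
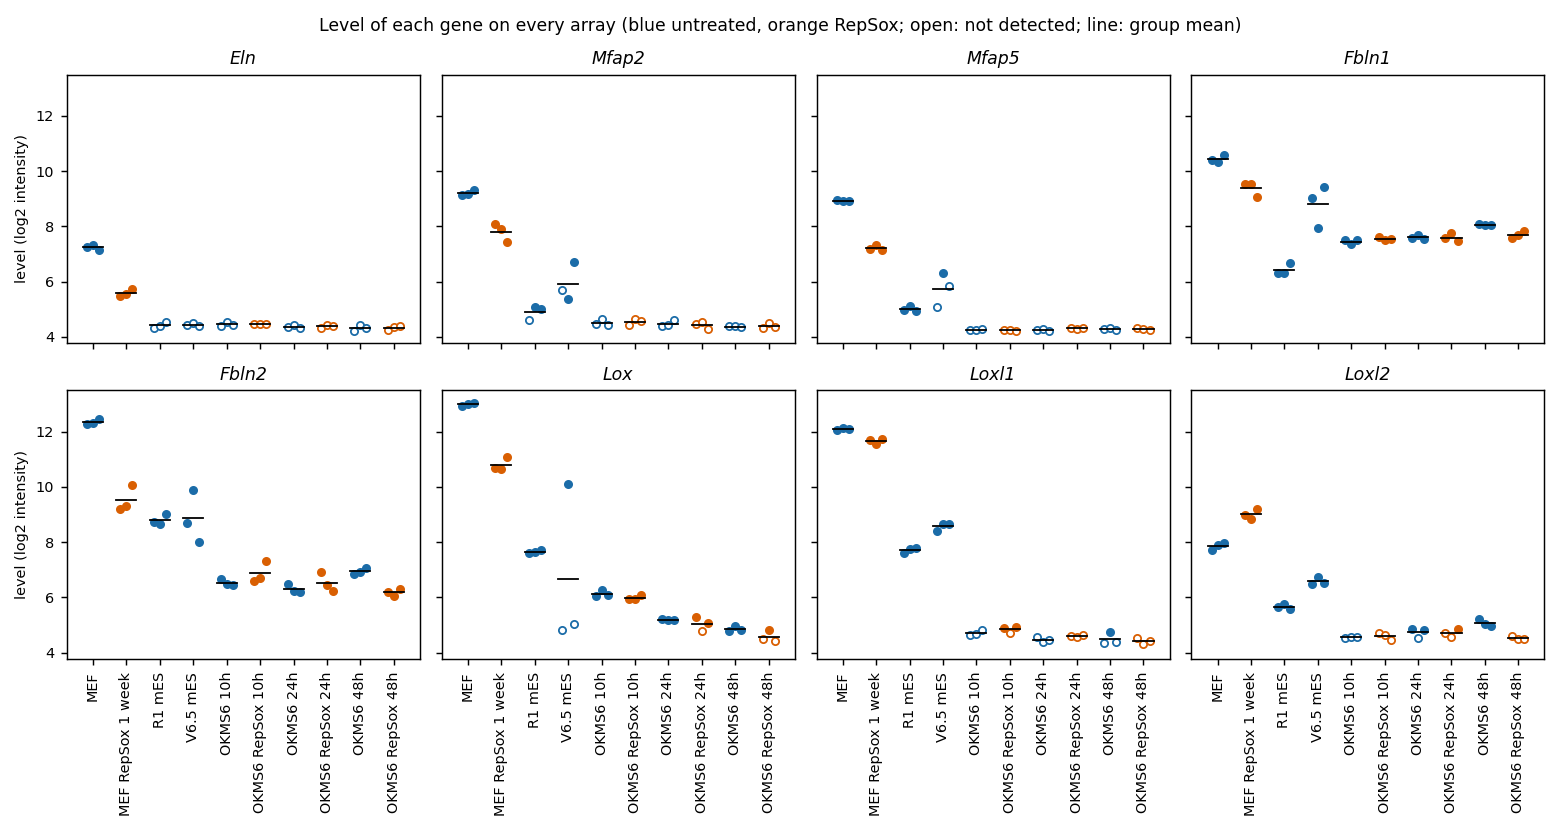
Normalised log2 intensity (y axis) of the probe representing each gene on every array of the 10 groups of the larger platform (x axis); blue marks untreated and orange RepSox-treated cells, open circles arrays on which the probe was not detected, and lines group means. Eln is detected in the fibroblast groups only, while Fbln1 and Fbln2 are detected on all 30 arrays.

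Elastin itself was detected on the 6 fibroblast arrays and on no other array of this platform. Its level was 7.26, 7.33 and 7.13 in untreated fibroblasts and 5.49, 5.55 and 5.74 after 1 week of RepSox. The treated arrays were all below the untreated ones, and the 8 remaining groups lay at background with means between 4.32 and 4.47 that could not be ordered. The probe therefore passed the detection filter through the fibroblast groups and had to differ from the others.

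Mfap2 stood at 9.13, 9.18 and 9.30 in fibroblasts and at 8.10, 7.90 and 7.44 with RepSox. For Mfap5 the levels were 8.96, 8.91 and 8.91 without and 7.16, 7.31 and 7.15 with RepSox. Both microfibril-associated genes were thus lower on each treated array. Mfap5 was also detected on 3 of 3 R1 arrays (4.98, 5.13 and 4.92) and Mfap2 on 2 of 3 (4.63, 5.09 and 5.01), while neither was detected by these probes on any of 18 OKMS6 arrays.

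By their brightest probes, Fbln1 and Fbln2 were detected on all 30 arrays of this platform. Fbln1 was at 10.41, 10.35 and 10.58 in fibroblasts, 9.52, 9.53 and 9.07 with RepSox, and 6.29, 6.30 and 6.67 in R1 cells. OKMS6 groups lay between, with means from 7.45 to 8.05, and were above R1 on every array. Fbln2, a fibulin of basement membranes and elastic fibres, was at 12.27, 12.32 and 12.44 in fibroblasts and at 9.21, 9.30 and 10.08 with RepSox. In that order of group means, treated fibroblasts overlapped V6.5, V6.5 overlapped R1 (8.72, 8.66 and 9.02), and the OKMS6 groups came last with means from 6.19 to 6.95.

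Lox, the founding member of the crosslinking enzymes, was at 12.92, 13.02 and 13.05 in fibroblasts, at 10.69, 10.67 and 11.07 with RepSox and at 7.60, 7.63 and 7.71 in R1 cells. In V6.5 it read 4.81, 10.11 and 5.05, the low values coming from the 2 dim arrays, and this spread enters the error of every Lox test. In untreated OKMS6 the mean was 6.13 at 10 h, 5.20 at 24 h and 4.85 at 48 h.

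Loxl1, which acts on elastin in particular, was at 12.08, 12.14 and 12.09 in fibroblasts, and at 11.70, 11.56 and 11.73 with RepSox. It was detected on 3 of 18 OKMS6 arrays and on all R1 arrays (7.60, 7.75 and 7.80). Loxl2, better known for crosslinking collagens, was at 7.70, 7.88 and 7.96 in fibroblasts and 9.00, 8.82 and 9.20 with RepSox, the reverse of the other crosslinking enzymes. R1 read 5.66, 5.76 and 5.58 for Loxl2.

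After 1 week of RepSox, 7 of the 8 tested genes had fallen in fibroblasts and 1, Loxl2, had risen. Across all genes tested, 15.1% changed in this comparison, 7.80% lower and 7.35% higher. The median change of the 8 genes was -1.52 on the log2 scale, against -0.02 over all genes, and the arrays of the 2 groups did not overlap for any of the 8. Changes and standard errors (SE) are from limma over all 30 arrays, with p-values adjusted by the Benjamini-Hochberg method over all 10614 genes.

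**Figure D2:**
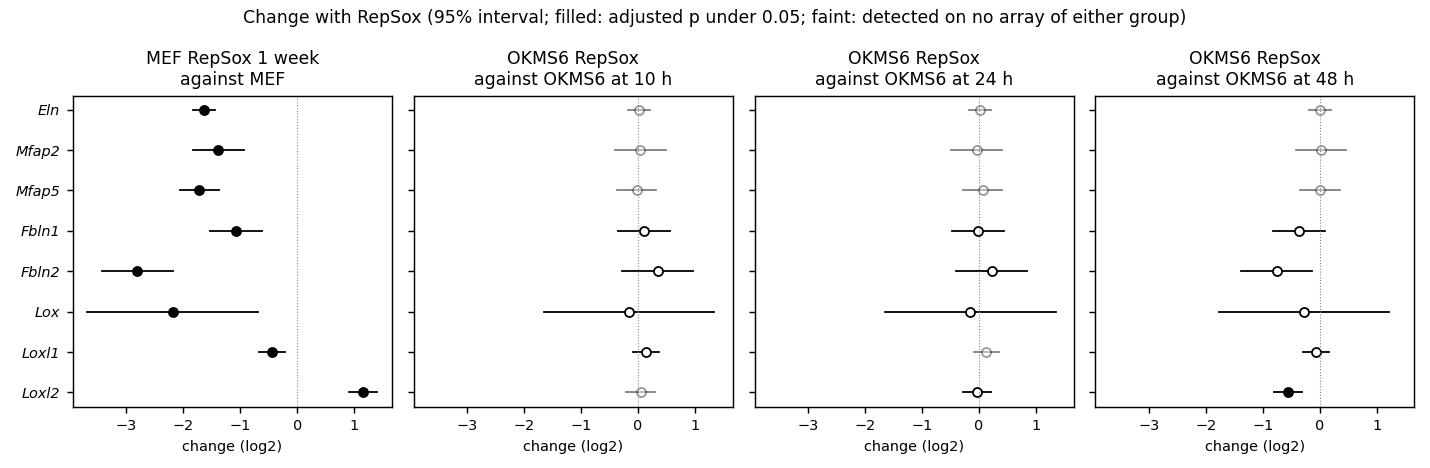
Change with RepSox (log2, x axis) of each gene with its 95% confidence interval in fibroblasts after 1 week and in OKMS6 at 10 h, 24 h and 48 h; filled circles have an adjusted p under 0.05 and faint ones were detected on no array of either group. All 8 genes are filled in fibroblasts and 1, Loxl2 at 48 h, in OKMS6, where its sign is opposite.

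The structural genes fell by 2.10-fold to 7.02-fold. Fbln2 moved furthest, by -2.81 ± 0.30 (log2, SE, n = 3 per group, adjusted p = 1.11e-07), a 7.02-fold drop. Mfap5 changed by -1.72 ± 0.17 (adjusted p = 2.02e-08) and Eln by -1.64 ± 0.09 (adjusted p = 1.48e-12), so that the elastin signal was 3.13-fold lower. The change of Mfap2 was -1.39 ± 0.22 (adjusted p = 3.23e-05) and that of Fbln1 -1.07 ± 0.22 (adjusted p = 0.000879).

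Crosslinking enzymes did not move as one. Lox fell 4.56-fold, by -2.19 ± 0.72 (adjusted p = 0.0413), its large error coming with the V6.5 spread: without the dim V6.5 arrays the change was -2.16 with an adjusted p of 1.10e-13. The call was lost when any single fibroblast array was left out, with adjusted p from 0.0820 to 0.106. It held in 6 of the 15 other ways of processing, with -2.33 to -2.12 as the range of the change. Loxl1 fell by -0.44 ± 0.11 (1.35-fold, adjusted p = 0.00629), a call that ended when arrays were scaled by their medians (adjusted p = 0.763). Loxl2 rose by 1.16 ± 0.12, which is 2.23-fold (adjusted p = 7.18e-08).

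**Figure D3:**
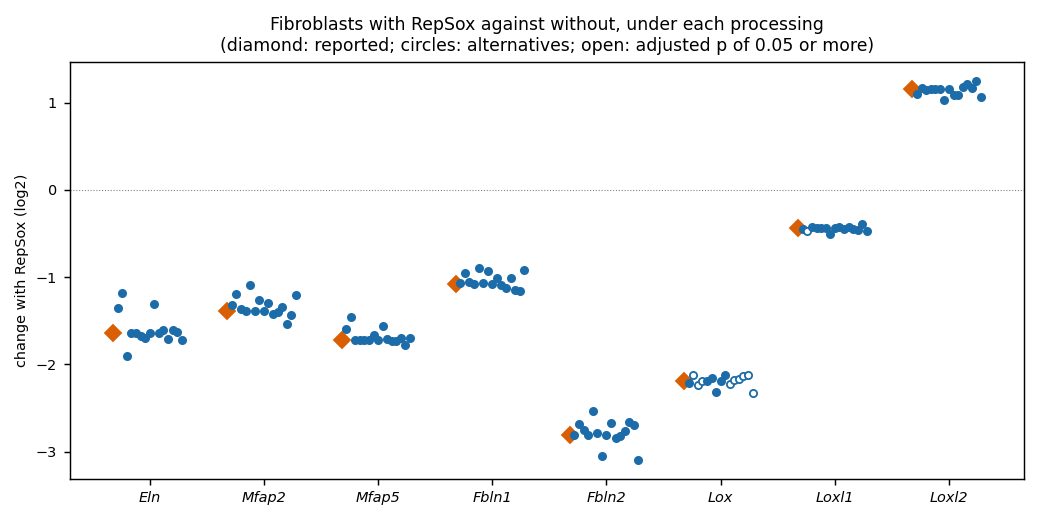
Change with RepSox in fibroblasts (log2, y axis) of the 8 genes (x axis) as reported (orange diamond) and under each other way of processing (blue circles); open symbols have an adjusted p of 0.05 or more. The direction of each gene is the same throughout, and open symbols occur for Lox and Loxl1.

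For genes with several probes, every probe moved the same way. Tested one by one in a fit over 15635 probes, an analysis added after the data were seen, 13 of 14 member probes were lower in treated fibroblasts and 1, of Loxl2, was higher, all 14 with an adjusted p under 0.05. The 3 Fbln2 probes changed by -2.81, -1.65 and -3.14, the 3 Fbln1 probes by -0.82, -0.80 and -1.07, and the 3 Mfap2 probes by -0.67, -1.39 and -1.22.

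**Figure D4:**
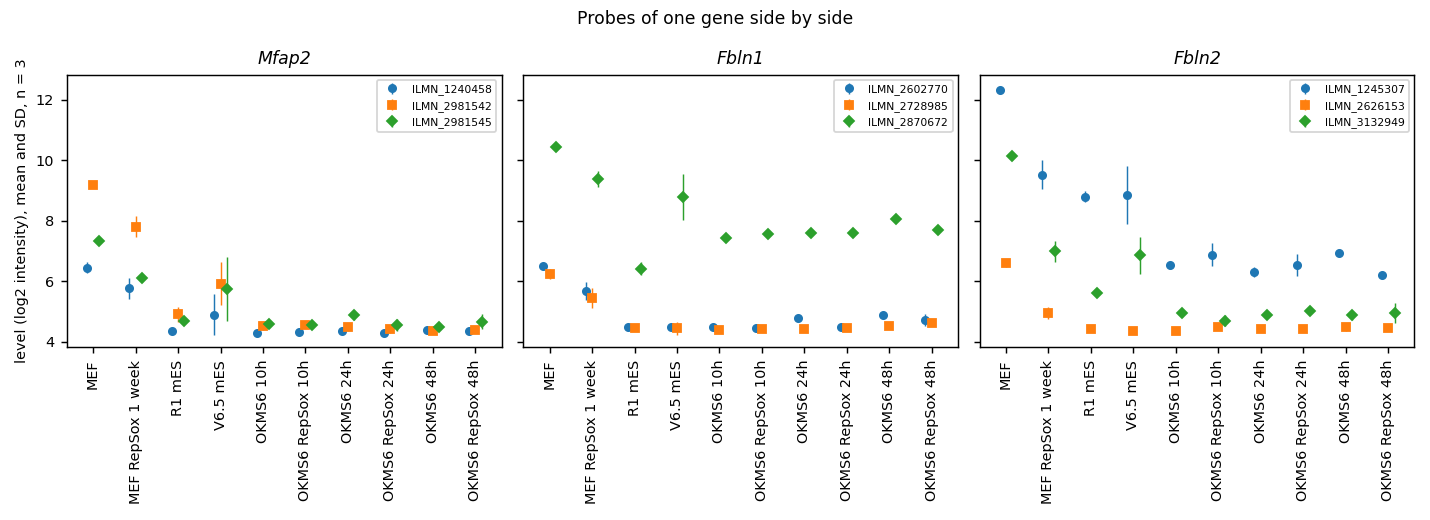
Mean and SD (n = 3) of the normalised log2 intensity (y axis) of each probe of Mfap2, Fbln1 and Fbln2 in the 10 groups (x axis). In fibroblasts all probes of a gene are above background, whereas outside fibroblasts 1 Fbln1 and 1 Fbln2 probe stay well above the others.

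Outside the fibroblasts the probes of a gene disagreed. In OKMS6 the Fbln1 probe used above read 7.45 to 8.05 in the group means and was detected on 18 of 18 arrays, another read 4.47 to 4.90 and was detected on 5 of 18, and the remaining one was detected on 0 of 18. The Fbln2 probe used above read 8.80 ± 0.19 (SD, n = 3) in R1, while the others read 5.60 ± 0.12 and 4.41 ± 0.02. The Mfap2 probe used above was detected on 0 of 18 OKMS6 arrays, while another was detected on 3 of 18. Statements on fibulins and Mfap2 in stem cells and OKMS6 thus hold for the brightest probe, and whether the probes measure different transcripts was not tested.

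The markers of other cell types also moved in the treated fibroblasts. All 5 tested adipocyte markers rose, their summed linear intensity going from 356 to 404 in untreated to 9269 to 13911 in treated fibroblasts, and 3 of them (Adipoq, Cebpa and Plin1) were detected on no untreated array. Among 5 smooth muscle markers 3 rose, with sums from 15711 to 16661 before and 19131 to 20571 after. Of 12 fibroblast markers 3 rose and 3 fell, and their sums overlapped (16063 to 17418 and 14059 to 18541). In bulk RNA, fewer cells of a type and less RNA per cell cannot be told apart, and the part of these cell types in the fall of elastic fibre genes was not tested.

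Genes that work alongside the elastic fibre were taken as lists chosen with earlier results of these data known. Among 12 tested of 18 listed microfibril and elastic fibre partners, 5 fell and 1 rose in treated fibroblasts, with a list median of -0.39. Mfap4, a microfibril-associated glycoprotein, was no longer detected and fell at least 4.95-fold (adjusted p = 1.78e-17). Emilin1, an elastin-associated glycoprotein, fell by 1.90 ± 0.23 (adjusted p = 5.26e-07) and Ltbp3, a latent TGF-beta binding protein, fell by 1.18 ± 0.24 (adjusted p = 0.000830) on the log2 scale. The member that rose was the small proteoglycan Dcn (1.01 ± 0.22, adjusted p = 0.00140), which falls outside the 3 genes named per list and was singled out after its value was seen.

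Among 11 tested of 12 other crosslinking and processing genes, 7 fell and none rose in treated fibroblasts, with a median of -0.64. The lysyl oxidase relative Loxl4 was detected on all untreated and on no treated arrays and fell at least 1.84-fold (adjusted p = 8.97e-07), and Loxl3 fell by 0.94 ± 0.12 on the log2 scale (adjusted p = 2.60e-06). Bmp1, the procollagen C-proteinase that also matures lysyl oxidase, fell by 0.64 ± 0.15 (adjusted p = 0.00456). Of the 5 lysyl oxidase family genes, Loxl2 was therefore the 1 that rose.

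Of 11 tested genes listed for elastin and microfibril degradation, 6 fell and none rose, with a median of -0.57. The list holds both enzymes and their inhibitors: the metalloproteinase inhibitor Timp1 changed by -1.87 ± 0.13 (log2, adjusted p = 1.09e-10), the elastin-cleaving cathepsin Ctsk by -2.07 ± 0.35 (adjusted p = 8.92e-05) and stromelysin Mmp3 by -1.13 ± 0.19 (adjusted p = 9.69e-05). Among 7 tested of 13 listed TGF-beta target genes 5 fell and none rose, with a median of -1.38. Skil, a co-repressor induced by TGF-beta, changed by -3.22 ± 0.23 (log2, adjusted p = 1.12e-10), the collagen gene Col1a2, also among the fibroblast markers, by -2.83 ± 0.22 (adjusted p = 4.90e-10) and Tgfbi by -1.38 ± 0.13 (adjusted p = 2.13e-08).

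In OKMS6 the same compound left most of the 8 genes within the error of the test. At 10 h 0 of 8 changed, with 3.88% of all genes changed (2.53% higher, 1.35% lower), and at 24 h 0 of 8, with 9.18% (5.68% higher, 3.50% lower). No member had an unadjusted p under 0.05 at these times, and by limma with array weights the counts were 0 and 1, the latter being Lox at 24 h. Eln, Mfap2 and Mfap5 were undetected by these probes with and without RepSox at all 3 times, so a fall could not have been detected for them. The same held for Loxl2 at 10 h and Loxl1 at 24 h, detected on 0 arrays of either group. Loxl1 at 10 h was likewise detected on 0 untreated arrays. The 95% interval of the Fbln2 change ran from -0.28 to 0.97 at 10 h and from -0.39 to 0.85 at 24 h (log2), and its untreated means of 6.53 and 6.31 left no room above background for a fall as large as that in fibroblasts. The untreated Lox means of 6.13 at 10 h, 5.20 at 24 h and 4.85 at 48 h left no such room either.

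At 48 h 1 of 8 genes changed, with 16.0% of all genes changed, 6.94% higher and 9.03% lower. Loxl2, the gene that rose in fibroblasts, was at 5.23, 5.04 and 4.97 in untreated and at 4.59, 4.48 and 4.50 in treated OKMS6 cells, and was detected on 3 of 3 and 0 of 3 arrays. This is a fall of at least 1.23-fold, with a fitted change of -0.56 ± 0.12 (log2, n = 3 per group, adjusted p = 0.00173). Without the arrays whose names disagree it was -0.59 (adjusted p = 0.0130), and with their names exchanged -0.24 (adjusted p = 1.00), a setting under which no gene of the 10614 was called. Scaling by medians also ended the call (adjusted p = 0.257). At this time 2 stem cell markers rose and 1 fell of 10, 1 fibroblast marker of 12 (Thy1) and 2 endothelial markers of 3 fell, 1 smooth muscle marker of 5 rose and 1 fell, and 0 of 5 adipocyte markers changed; their part in the Loxl2 result was not tested.

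Both fibulins were lower at 48 h on each treated array without passing the test. Fbln2 read 6.85, 6.93 and 7.07 in untreated and 6.20, 6.07 and 6.31 in treated cells, a difference of -0.76 ± 0.30 (adjusted p = 0.0984). For Fbln1 the levels were 8.07, 8.05 and 8.05 against 7.57, 7.68 and 7.81, a difference of -0.36 ± 0.22 (adjusted p = 0.344). Without the dim V6.5 arrays both were called, with adjusted p of 0.00281 and 0.0185, and with the 48 h names exchanged the differences were -0.25 and -0.21. The other probes of Fbln2 did not show this difference (-0.05 and 0.06), and those of Fbln1 gave -0.18 and 0.09.

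Some other genes of the pathway changed in OKMS6. Over all genes, 3.88% changed at 10 h, 9.18% at 24 h and 16.0% at 48 h. Of the 11 tested crosslinking and processing genes, 1 fell at 10 h, 3 at 24 h and 6 at 48 h, and none rose. The transglutaminase Tgm2 fell by 0.69 ± 0.11 at 10 h (log2, adjusted p = 0.000415) and was no longer detected with RepSox at 48 h, at least 3.07-fold lower (adjusted p = 2.92e-11). Plod3, a lysyl hydroxylase, fell by 1.29 ± 0.11 (adjusted p = 6.48e-09) and Loxl4 fell by 0.90 ± 0.14 (adjusted p = 3.37e-05) at 48 h.

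The 12 partner genes gave 0 calls at 10 h, 1 at 24 h, Ltbp1, which rose by 1.46 ± 0.27 (log2, adjusted p = 0.000614), and 1 at 48 h, Emilin2, which fell at least 1.19-fold (adjusted p = 0.0410). These partner counts were near or below the shares of all genes changed, 3.88% at 10 h, 9.18% at 24 h and 16.0% at 48 h. Of the 7 tested TGF-beta targets 1 fell at 10 h, 2 fell and 1 rose at 24 h and 2 fell at 48 h, with list medians of 0.06, -0.04 and -0.02. Skil fell at each time, with changes of -1.14 ± 0.23, -1.01 ± 0.23 and -0.98 ± 0.23 (adjusted p = 0.00399, 0.00502 and 0.00396). Bhlhe40 changed by -1.07 ± 0.26 at 24 h (adjusted p = 0.00915) and by -2.19 ± 0.26 at 48 h (adjusted p = 1.05e-06), and Tgfbi rose by 0.51 ± 0.13 at 24 h (adjusted p = 0.0140). Of the degradation genes 1 rose at 10 h, none changed at 24 h and 4 fell at 48 h, led by Timp3 (-1.60 ± 0.19, adjusted p = 9.73e-07), Timp1 (-0.86 ± 0.13, adjusted p = 4.67e-05) and Mmp14 (-1.19 ± 0.26, adjusted p = 0.00195). These 48 h calls rest on the array names of the scanner table.

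Between the times, 1 of 8 genes had a RepSox effect that differed, with 8.80% of all genes doing so. This was Loxl2, whose effect was 0.04 at 10 h, -0.03 at 24 h and -0.56 at 48 h (log2, F test over times, adjusted p = 0.0434). At 10 h Loxl2 was detected on 0 of 3 arrays with and without RepSox, so no fall could have been measured. At 24 h it was detected on 1 of 3 treated and 2 of 3 untreated arrays. When replicate numbers were fitted as a block, its adjusted p was 0.0574 and the call ended. It also ended for 14 of the 18 arrays when each was left out in turn. In untreated cells Loxl2 was also the 1 of 8 called between times (20.0% of all genes, adjusted p = 0.00868), with means of 4.56, 4.74 and 5.08 at 10 h, 24 h and 48 h. That call ended without OKMS6 48 h replicate 1 (adjusted p = 0.0709). The fall of Lox over the same times had an adjusted p of 0.445, and of 8.24e-09 without the dim V6.5 arrays.

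The RepSox effect in fibroblasts was also tested against that in OKMS6 at 48 h, although the exposure, 1 week against 48 h, differed as well as the cells. The effect differed for 5 of the 8 genes, with 16.0% of all genes called, 8.61% higher and 7.40% lower. The effect in fibroblasts minus that in OKMS6 was -1.66 ± 0.13 for Eln, -1.41 ± 0.31 for Mfap2, -1.73 ± 0.24 for Mfap5, -2.06 ± 0.43 for Fbln2 and 1.72 ± 0.17 for Loxl2 (log2). For the first 3 of these the OKMS6 signal of the brightest probe was at background on all arrays, so the difference restates the change in fibroblasts. The difference for Fbln2 was not called under median scaling (adjusted p = 0.231), and those of Fbln1, Lox and Loxl1 were not called (adjusted p = 0.141, 0.255 and 0.119). Without the dim V6.5 arrays those of Fbln1 and Lox were (adjusted p = 0.00168 and 2.27e-09). Lox in OKMS6 at 48 h stood near background, at means of 4.85 untreated and 4.57 treated, the latter detected on 1 of 3 arrays. A fall of Lox as large as in fibroblasts could not have been measured there.

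Against fibroblasts, all 8 genes were lower in R1 embryonic stem cells, where 57.6% of all genes changed, 29.5% higher and 28.1% lower. Loxl1 was 20.9-fold lower (-4.38 ± 0.11, adjusted p = 2.02e-20) and Lox 40.8-fold lower (-5.35 ± 0.72, adjusted p = 6.64e-07). Eln, undetected in R1, was at least 5.85-fold lower. It passed the detection filter through the fibroblast arrays alone, so that it would be lower was fixed in advance. The remaining changes ran from -2.18 ± 0.12 for Loxl2 to -4.29 ± 0.22 for Mfap2. Fibroblast markers were not absent from R1: 9 of 12 were detected on all 3 arrays with Col1a2 and Lum on none, their summed linear intensity of 972 to 1080 standing against 16063 to 17418 in fibroblasts, and the part of feeder cells in the R1 levels was not tested.

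Untreated OKMS6, 9 arrays over the 3 times, was likewise lower for 8 of 8 genes, with 59.2% of all genes changed, 32.0% higher and 27.2% lower. Because it shares the fibroblast arrays with the R1 comparison, the results are not independent. Lox was 195-fold lower (-7.60 ± 0.59, adjusted p = 3.73e-11) and Fbln2 53.8-fold lower (-5.75 ± 0.25, adjusted p = 3.13e-16). Lox was detected on all 9 OKMS6 arrays, but its mean of 5.39 there lay near background, so its fold is not exact. Loxl1 was lower too (adjusted p = 1.54e-26), but was detected on 1 of the 9 OKMS6 arrays, so its fitted difference of -7.54 is set against a level near background and is not a measured size. Genes whose brightest probe was detected on no OKMS6 array were at least 5.39-fold (Eln), 21.0-fold (Mfap2) and 17.4-fold (Mfap5) lower. As in the R1 comparison, the filter fixed that Eln would be lower. Of the detected genes Fbln1 differed least, by -2.74 ± 0.18.

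Set against R1 directly, untreated OKMS6 was lower for 6 of 8 genes and higher for 1, with 50.5% of all genes changed, 25.9% higher and 24.6% lower. The difference was -2.25 ± 0.59 for Lox and -2.21 ± 0.25 for Fbln2 (log2), both detected on all 9 OKMS6 arrays, Lox at a mean near background. Loxl2 and Loxl1, detected on 5 and 1 of the 9, gave fitted differences of -0.87 and -3.16 against levels near background, which are not measured sizes. With V6.5 in place of R1 the Lox call ended (-1.26, adjusted p = 0.0588). The low V6.5 values of Lox came from the dim replicates 1 and 3, so line and array quality cannot be told apart for it. Mfap2 and Mfap5, undetected in OKMS6 by their brightest probes, were at least 1.07-fold and 1.15-fold lower, and the Mfap2 arrays overlapped. The Mfap2 call held in 16 of 22 alternatives. It ended without R1 replicate 2 (adjusted p = 0.178), without R1 replicate 3 (0.137), without the detection filter (0.0504), with the mean of its probes (0.302), with only the groups compared (0.775) and in the authors' processed table (0.295), where that of Mfap5 ended too (0.174). Fbln1 was 2.43-fold higher than in R1 (1.28 ± 0.18, adjusted p = 1.42e-06), but lower than in V6.5 (-1.09 on the log2 scale, adjusted p = 9.57e-06). Its direction by the brightest probe was thus not the same against both lines. As V6.5 replicates 1 and 3 were dim, line and array quality cannot be told apart here. Eln was undetected in both.

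The iPS line was read on its own platform and is described by ranks, in which platform and cell line cannot be told apart. Over the 16075 probes that both platforms hold, which include 9 probes of 7 of the listed genes, each array's probes were ranked and the rank given as a percentile. Eln was detected on 3 of 3 iPS arrays (5.60, 5.47 and 5.34) at percentiles of 51.4 to 54.6, below fibroblasts (78.2 to 79.7) and above R1 (23.4 to 48.1), where it was not detected. By its brightest probe Fbln2 ranked at 96.5 to 97.4 in the iPS line, against 99.4 to 99.5 in fibroblasts and 89.1 to 91.1 in R1. By the other shared Fbln2 probe the ranks were 56.0 to 61.4, 73.0 to 75.0 and 34.4 to 39.4. The shared Fbln1 probes ranked at 60.8 to 65.4 and 61.0 to 64.6 in the iPS line. They ranked at 70.5 to 73.0 and 72.7 to 74.0 in fibroblasts and at 38.6 to 44.2 and 41.7 to 46.5 in R1. Loxl2 ranked at 83.2 to 85.7, overlapping fibroblasts (82.5 to 84.3). The Fbln5 probe, undetected on both platforms, also ranked higher in the iPS line (26.0 to 39.2) than in R1 (7.67 to 20.6). It overlapped V6.5 (11.8 to 48.1).

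**Figure D5:**
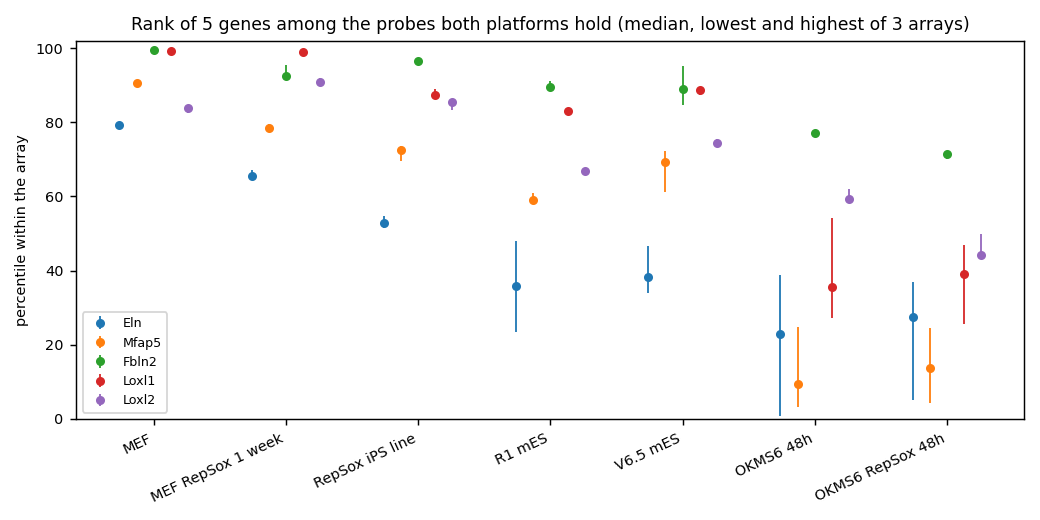
Percentile (y axis) of the probes of 5 genes among the 16075 shared probes of each array, in 7 groups (x axis); points are medians and bars reach from the lowest to the highest of 3 arrays. In the iPS line each of the 5 genes ranks above R1, but platform and cell line cannot be told apart.

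Mfap5 (69.6 to 73.7 in the iPS line, 58.0 to 61.0 in R1) and Loxl1 (87.2 to 89.0 and 82.0 to 83.3) likewise ranked higher on each iPS array than on any R1 array, but both overlapped V6.5 (61.1 to 72.2 for Mfap5 and 87.4 to 89.1 for Loxl1), whose replicates 1 and 3 were dim. Eln, Fbln2 and Loxl2 ranked higher in the iPS line than in V6.5 as well (33.9 to 46.6, 84.6 to 95.1 and 74.1 to 75.6). Lox was read by another probe there, at 12.38, 12.68 and 12.66. All 12 fibroblast markers and the 9 stem cell markers with a probe were detected on every iPS array. The 9 shared fibroblast marker probes had a median percentile of 72.3 to 74.8 per iPS array. It was 64.0 to 68.7 in R1, 70.7 to 82.3 in V6.5 and 91.6 to 92.8 in fibroblasts. Markers of fibroblasts thus ranked higher than in R1 together with these genes but overlapped V6.5, and their part in the ranks was not tested.

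Across the 10 group means of the larger platform the 8 genes rose and fell together to different degrees, as a description of 10 points that share their arrays. Pearson's r ran from 0.75 between Eln and Loxl2 to 0.995 between Mfap2 and Mfap5. The genes most like Eln in this measure were Avpr1a, Cxcl15, Galnt13, Hgf and Col10a1 (r from 0.997 to 0.999), and those most like Lox were Smarcd3, Col1a1, Calhm5, Hoxb7 and Sec24d (0.981 to 0.985).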

How the data were processed

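Per the labels and the file headers, the deposited data were BeadStudio tables of Illumina mouse arrays (named in the submitters' processing notes, version not given in the sources used here), holding for each probe a non-normalised intensity and a detection p-value; the authors' processed value tables hold intensities normalised in a way not given there, with 0 columns of unmapped arrays. Scanner intensities were background-corrected and quantile-normalised with neqc (limma 3.58.1, R 4.3.3; offset 16, background inferred from the deposited detection p-values), per platform. Probes with a detection p under 0.05 on 3 or more of 30 arrays were kept (15635 of 25697), and the brightest probe represented a gene. One linear model with a mean per group (20 residual degrees of freedom) gave two-sided moderated tests, Benjamini-Hochberg adjusted over 10614 genes and called under 0.05. Depth is not defined for arrays, and 3 arrays per group limit the precision. A probe detected on no array of a group gives a bound on the fold, against the lowest detected signal of each array. The script was tested on simulated data.

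Members and lists were chosen with earlier results of these data known. Named beyond them are at most 3 called genes per list and comparison with the smallest adjusted p, and the 5 genes best correlated with Eln and with Lox. Marker lists of endothelial cells, macrophages and chondrocytes gave 1, 0 and 0 genes higher and 0, 1 and 2 lower of 3, 1 and 3 tested in treated fibroblasts. The stem cell list gave 0 of 10. Alternatives were other background corrections, scalings, filters, probe rules, array weights, a replicate block, fewer groups and left-out arrays. Deviations from the group mean correlated between same-numbered arrays of untreated and treated OKMS6 at 48 h (r = 0.225, 0.101 and 0.338). For replicate 2 the highest correlation was with another number. The reported tests paired no arrays in any comparison, and the replicate block was an alternative tried for each.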

Additional observations from a re-analysis of the deposited data

Results flagged for a closer look

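The change with RepSox in fibroblasts after 1 week minus that in OKMS6 at 48 h passed a test of the difference for 5 genes. It was -1.66 for Eln, -1.41 for Mfap2, -1.73 for Mfap5, -2.06 for Fbln2 and 1.72 for Loxl2 (log2; adjusted p = 9.39e-10, 0.00161, 6.07e-06, 0.00104 and 4.25e-08). For Eln, Mfap2 and Mfap5 the brightest probes were detected on 0 OKMS6 arrays with and without RepSox. For these probes the difference restates the fall in fibroblasts and shows nothing about OKMS6. The Fbln2 difference lost its call under median scaling (adjusted p = 0.231). Cells and exposure time differed together and cannot be told apart. Loxl2 rose in fibroblasts and was lower in OKMS6 at 48 h, but the latter call ended with the 48 h array names exchanged (-0.24, adjusted p = 1.00), with median scaling (0.257) and in the authors' processed table (adjusted p = 1). The processed table carries the exchanged names itself, so it is not a separate check from the exchange.

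The change of Loxl2 with RepSox in OKMS6 passed the test of a difference between the 3 times by a small margin (adjusted p = 0.0434) and held in 9 of 29 alternatives. The call was lost with the replicate block (adjusted p = 0.0574) and for 14 of the 18 arrays left out in turn. Between 10 h and 48 h the change differed by -0.60 ± 0.17 on the log2 scale (adjusted p = 0.0270). At 10 h, however, Loxl2 was detected on 0 arrays with and without RepSox, so no fall could have been measured then.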

How the results depend on the processing

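Leaving out each array in turn gave 7 to 7 changed genes of 8 in treated fibroblasts, the gene lost being Lox, 1 to 1 in OKMS6 at 48 h, 8 to 8 in R1 and in OKMS6 against fibroblasts, 6 to 7 in OKMS6 against R1, 0 to 1 for the effect between times, 0 to 1 for untreated OKMS6 between times and 5 to 6 for fibroblasts against OKMS6. Against the reported 1 at 48 h, the count was 0 with median scaling, the processed table or exchanged 48 h names, and 3 without the dim V6.5 arrays, with array weights or with only the groups compared, where 4 of the genes were detected often enough to test. The processed table carries the exchanged 48 h names itself, so these settings are not separate checks wherever 48 h arrays enter. At 24 h array weights gave 1. For the effect between times (1 reported), the count was 0 without background correction, with median scaling, with the processed table, with the replicate block, and without or with exchanged 48 h arrays numbered 3, 2 without the dim V6.5 arrays, and 3 with array weights or only the groups compared. For untreated OKMS6 between times (1 reported), it was 0 with median scaling, the processed table or exchanged names, 2 with the mean of all probes, 4 without the dim V6.5 arrays or with only the groups compared, and 5 with array weights. For fibroblasts against OKMS6 (5 reported), array weights and only the groups compared gave 8. The cause of these shifts was not tested. Fbln1 in OKMS6 against stem cells turned to -1.09 with V6.5 in place of R1.

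Over the single genes, 1443 values kept direction and side of the threshold, 46 lost and 34 gained the call, and 1 called value reversed; the 1443 include 38 whose sign differed with neither value called. The replicate block changed no other call than that of Loxl2 between times. Under median scaling the all-gene median shifted to 0.52 in R1 and 0.42 in OKMS6 against fibroblasts and to -0.18 at 24 h (log2), which turned the split of called genes to 5120 higher and 1924 lower (from 3131 and 2984), 5126 and 1586 (from 3400 and 2883) and 233 and 643 (from 603 and 371); in treated fibroblasts it gave 555 and 350 (from 780 and 828), and at 48 h 347 and 830 (from 737 and 958); for fibroblasts against OKMS6 it gave 792 and 352 (from 914 and 785). Of all genes, 1608 were called in treated fibroblasts, against 905 with median scaling, 3005 without the dim V6.5 arrays and 4205 with array weights, and 1695 at 48 h, against 0 with exchanged names or the processed table, 1016 without the arrays numbered 3, 3446 without the dim V6.5 arrays, 4608 with array weights and 3922 with only the groups compared. The 7 falls and 1 rise in fibroblasts kept their sign under median scaling. Where a probe is at background, no fall could be measured.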
